A study of Bos taurus with 47 samples.

Results

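The genes described here were those most abundant in the muscle of newborn calves and lower both in the grown heifer and in the early fetus. They were selected on measured values: a row needed a birth mean of at least 10 CPM (the count divided by the library total, on the usual CPM scale) and a birth mean at least 2.5 times each of the slaughter and fetal means. Of 27607 gene identifiers in the deposited tables, 120 met these thresholds. The 100 with the highest log2 ratio of the birth mean to the larger of the other means, after adding 0.5 CPM to each, were taken as members. All comparisons of birth with the other stages are therefore given as descriptions, with no test.

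RNA sequencing was carried out on Longissimus muscle of cattle whose founder dams, crossbred Angus heifers (F0), gained either 0.28 kg daily (low gain, LG) or 0.79 kg daily (moderate gain, MG) from conception to day 84 of pregnancy. The birth libraries came from F1 heifer calves, sampled in the Longissimus thoracis before they suckled (8 LG and 8 MG). The slaughter libraries came from F1 heifers at harvest (8 LG and 7 MG by the labels of the samples, although the protocol text gives the numbers the other way round). The fetal libraries came from the Longissimus dorsi of F2 fetuses, grandoffspring of the treated dams, collected whole at day 84 of gestation (8 LG and 8 MG). LG and MG describe the F0 dam throughout, since F1 heifers were managed alike whichever gain their dams had. The labels do not give the age of the heifers at slaughter or tie libraries to named animals, so the spread behind each p-value is that between libraries, which may be technical. Fetal samples differed from birth samples in generation and muscle region as well as age, and the counts of each stage were deposited in a table of their own, so stage cannot be told apart from these. Total counts ran from 13308433 to 32547565 per library.

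The Longissimus is a long back muscle that supports posture. At day 84 of gestation bovine muscle is still forming its fibres, at birth the fibres are formed and begin to carry load, and later growth enlarges them. Around birth a calf also loses the placental supply of nutrients, meets labour-related hormones and starts to breathe and keep its own temperature. The deposited files name genes by Ensembl identifier alone and no identifier matched a symbol in the reference table used here, so roles of members, pathway lists and markers of cell types were not examined. For the same reason the tissue label was not checked against muscle markers. Identifiers printed below show how the values behave and carry no statement on function. In whole muscle, fewer cells of a type and less RNA per cell cannot be told apart.

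Members made up 2.23% ± 0.473 of all counts at birth (SD, n = 16 libraries), with a range of 1.51% to 3.10%. At slaughter they made up 0.533% ± 0.143 (n = 15, range 0.412% to 0.940%), and in the fetus 0.263% ± 0.0906 (n = 16, range 0.164% to 0.521%). No slaughter or fetal library reached the lowest birth library. The 5 members with the most counts held 49.1% of the members' birth counts, so these shares rest largely on a few genes.

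**Figure D1:**
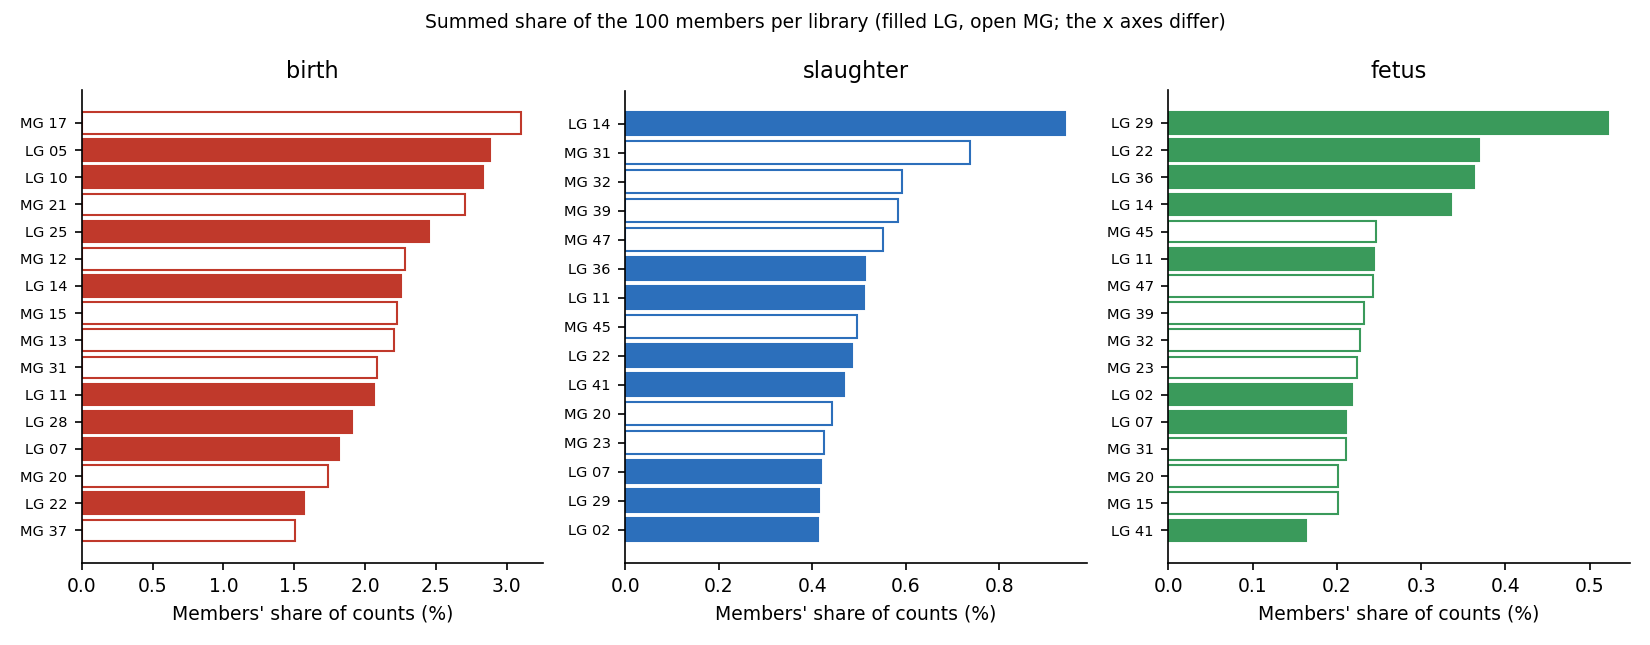
Each bar is the summed share of all counts, in percent, that the 100 members took in a library (filled bars LG, open bars MG), with a separate x axis for each stage. Birth libraries run from 1.51% to 3.10%, and slaughter LG 14 (0.940%) and fetal LG 29 (0.521%) stand above the other libraries of their stage.

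Most members were modestly expressed even at their peak. Their birth means ran from 10.1 to 4978 CPM with a median of 48.8 CPM. Of the 100, 43 reached 100 CPM and 26 lay under 20 CPM. The median mean was 10.2 CPM at slaughter and 6.15 CPM in the fetus. Few members were silent outside birth: 5 had a slaughter mean under 1 CPM, 18 a fetal mean under 1 CPM, and 2 both. CPM are not divided by gene length, so levels are not compared between genes.

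The birth peak was shallower against slaughter than against the fetus. The ratio of the birth mean to the slaughter mean had a median of 4.17 and a lowest value of 2.77, and 23 members reached 8-fold. The ratio to the fetal mean had a median of 10.7 and ran from 2.84 to 556, and 57 members reached 8-fold. Both ratios were at least 4-fold for 48 members and at least 8-fold for 13. Slaughter was the next-highest stage by mean CPM for 77 members and fetus for 23.

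**Figure D2:**
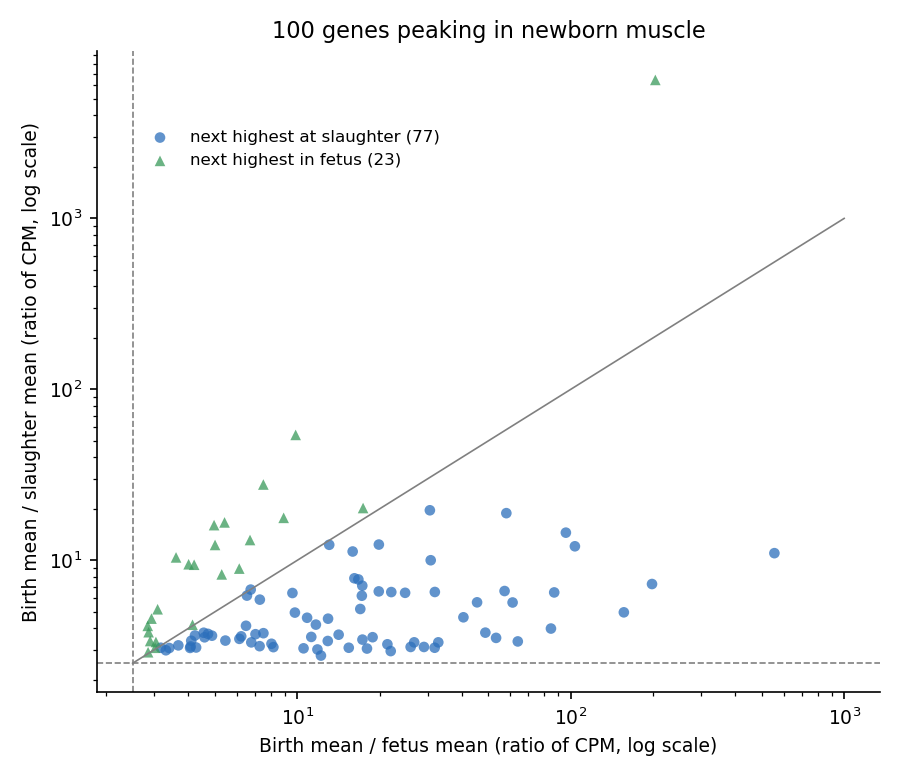
Each point is a member, placed by the ratio of its birth mean to its fetal mean (x, log scale) and to its slaughter mean (y, log scale). Dashed lines mark the 2.5-fold minimum and the diagonal marks equal ratios. Most points lie low and spread to the right, and the highest triangle, ENSBTAG00000008026, owes its height to a slaughter mean that rests on 6 counts.

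The stages did not overlap for most members. The lowest of the 16 birth libraries lay above the highest of the 31 slaughter and fetal libraries for 58 members. The same held for 131 of the 6445 rows with a birth mean of at least 10 CPM (2.03%), but the rule chose members on these means, so nothing is read from the gap. Birth lay clear of all slaughter libraries for 63 members and clear of all fetal libraries for 90. The share of all rows was not computed for either stage alone, so nothing is read from these counts.

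ENSBTAG00000008026 had the highest rule value, a log2 ratio of 6.88. Its birth values had a lowest of 5.99, a median of 131 and a highest of 324 CPM, and the low value was MG 15, with the other 15 calves at 60.0 CPM or more. At slaughter it was nearly absent, with 6 counts over the 15 libraries, a median of 0 and a highest value of 0.122 CPM. Fetal values had a lowest of 0, a median of 0.514 and a highest of 2.43 CPM. Even the low calf lay above every slaughter and fetal library.

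ENSBTAG00000018186, second by rule value, showed a tighter peak. It had a lowest of 431, a median of 765 and a highest of 1105 CPM at birth. At slaughter these values were 17.6, 30.5 and 106 CPM, and in the fetus 22.97, 44.5 and 61.8 CPM. The birth libraries stood clear of both other stages, while slaughter and fetus overlapped widely.

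The 2 members with the highest birth means lay 3.44 and 3.14 times above their slaughter means. ENSBTAG00000013631 had a lowest of 2567, a median of 4788 and a highest of 8637 CPM at birth, against 929.5, 1321 and 3039 CPM at slaughter and 201, 302 and 342 CPM in the fetus. Its highest slaughter library, LG 14, exceeded its lowest birth library, MG 37, so these stages overlapped, whereas every fetal library lay below both. ENSBTAG00000043570 had a lowest of 1247, a median of 3036 and a highest of 7752 CPM at birth, and 598, 905 and 2148 CPM at slaughter. Its fetal values ran from 126 to 3253 CPM with a median of 486 CPM, and the highest fetal libraries overlapped birth.

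**Figure D3:**
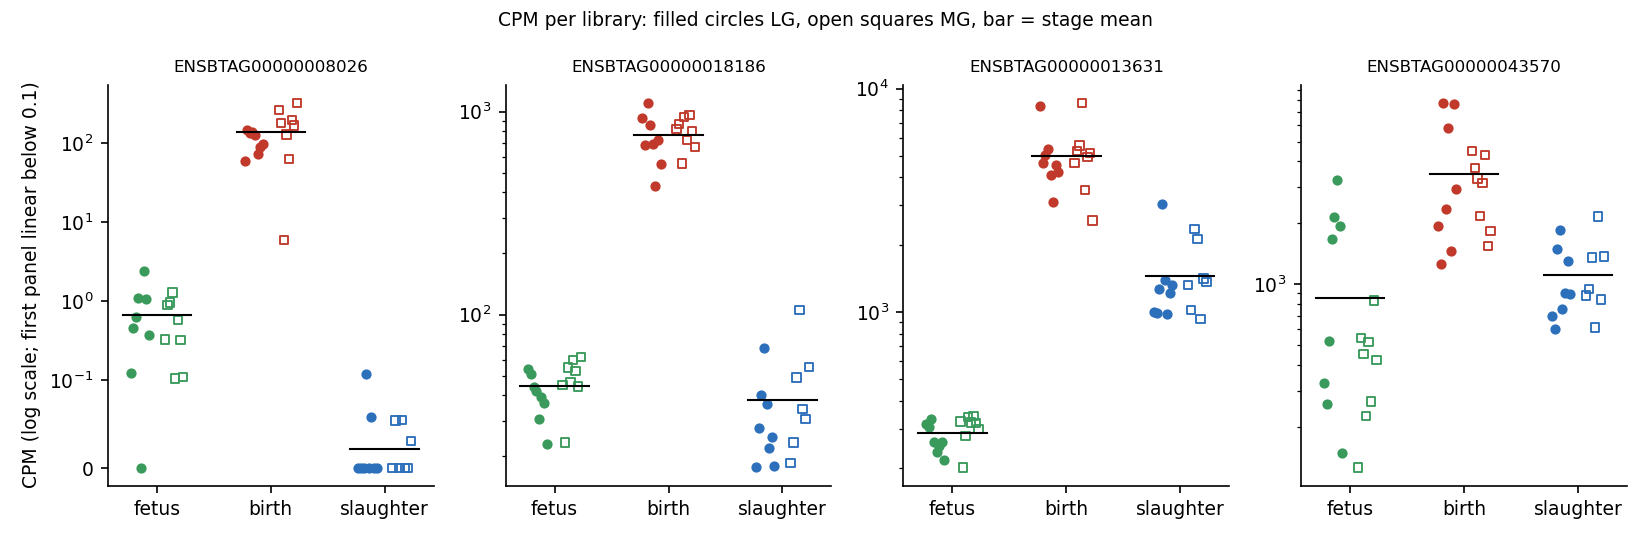
CPM in each library for the members with the highest rule values (ENSBTAG00000008026, ENSBTAG00000018186) and the highest birth means (ENSBTAG00000013631, ENSBTAG00000043570), with filled circles for LG, open squares for MG and a bar for the stage mean on log axes (the first panel is linear below 0.1 CPM). Birth stands clear of the other stages in the first pair, and overlaps slaughter in the second pair.

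At the edge of the selection the values were close. The member in place 100 had a log2 rule value of 1.463 with stage means of 165 CPM at birth, 59.7 CPM at slaughter and 13.6 CPM in the fetus. The first row left out had 1.459, with 73.6, 26.5 and 10.1 CPM in the same order.

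The rule did not use the spread between calves, but it used birth means, which a few high calves can raise. ENSBTAG00000023659 had a birth mean of 124 CPM and a median of 35.4 CPM. With medians in place of means 86 of the 100 members were among the first 100, and without birth MG 17, 94 were. The spread at birth is therefore not independent of the choice of members. On log2 CPM scaled by TMM, a normalisation that sets most genes level between libraries, the SD between birth libraries had a median of 0.44 over members and 0.24 over the 6445 rows with a birth mean of at least 10 CPM. At slaughter the medians were 0.50 and 0.23, and in the fetus 0.52 and 0.46. The median SD of members was thus above that of these rows at each stage, as a description without a test. The rows were chosen on birth mean alone, while the rule also capped members at slaughter and in the fetus. There the members' median means were 10.2 and 6.15 CPM. Levels were not matched, and log2 values spread more at low counts, so nothing particular to members is read from these medians. Their SD at birth exceeded 1 for 5 members and was under 0.3 for 22.

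ENSBTAG00000007129 varied most at birth, with an SD of 1.38 log2. It had a lowest of 4.49, a median of 37.8 and a highest of 157 CPM, the last in MG 21. ENSBTAG00000007415 came next, with an SD of 1.32 log2 and a lowest of 55.1, a median of 340 and a highest of 1538 CPM. Its high calves were LG 05, MG 17 and MG 21, at 1315 CPM or more, and the next calf was at 597 CPM. At the other end, ENSBTAG00000016048 had an SD of 0.19 log2 and ran only from 151 to 246 CPM.

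Members did not rise and fall as a single block among calves. Across the 16 birth libraries the median Pearson r over 4950 pairs of members was 0.11, against 0.03 over all rows with a birth mean of at least 10 CPM. An r over 0.5 was seen for 16.0% of member pairs and 9.22% of all pairs, and an r under -0.5 for 5.31% and 6.61%. The first principal component held 35.0% of the members' variance at birth, against 28.5% for all rows. On it 72 members had a positive weight and 28 a negative one. Its sign was set so that the weights had a positive sum, which favours a positive majority. Weights were not counted for all rows, so nothing is read from this split. These libraries share depth and tissue makeup, and no p is given.

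The first component had its highest scores in MG 17, LG 05 and MG 21, which included calves of both groups. MG 21 was the highest of 16 calves for 25 members, against 17.5% of all rows. LG 05 was highest for 15 members (11.2% of all rows) and MG 17 for 15 (10.1%). High values in single calves also raise the birth means that chose the members, so these counts are not independent of the rule. In MG 17 the top 10 genes by count held 17.3% of the library and between 21.7% and 26.8% in the other calves; the part of this difference in the members' values was not tested.

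Dam gain did not enter the rule, so LG and MG could be tested within each stage, with edgeR's quasi-likelihood test and Benjamini-Hochberg adjustment over all genes tested. At birth the members took 2.22% ± 0.475 of counts in the 8 LG calves and 2.23% ± 0.505 in the 8 MG calves (SD). All 100 members were tested and 0 passed an adjusted p of 0.05, as did 0% of the 12485 genes tested. At an unadjusted p under 0.05 there were 5 members (2 higher and 3 lower in LG), or 5%, where 4.12% of all genes passed. DESeq2 gave 0 adjusted and 6 unadjusted calls among members, where 4.38% of all genes passed unadjusted. limma voom gave the same member counts, where 3.72% of all genes passed. The median log2 difference of LG minus MG was -0.03 over members and -0.01 over all genes. Without LG 05, 12 members passed at an unadjusted p under 0.05 (10 lower in LG), where 8.12% of all genes did, and without MG 17 only 1 member did, where 3.03% of all genes did.

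The members with the smallest unadjusted p at birth differed by amounts within the scatter of the calves. ENSBTAG00000011731 had a lowest, median and highest of 67.8, 79.6 and 113 CPM in LG and 48.0, 65.9 and 112 CPM in MG. Its log2 difference was 0.30 (SE 0.14, adjusted p = 0.985, edgeR), and the groups overlapped. ENSBTAG00000023659 had a lowest, median and highest of 23.6, 34.4 and 127 CPM in LG and 25.2, 56.8 and 1290 CPM in MG. Its log2 difference was -1.95 (SE 0.75, adjusted p = 0.985, edgeR), -0.17 without MG 17 and -2.36 without LG 05. MG 17 held the highest MG value and LG 05 the highest LG value. The other MG calves had at most 84.4 CPM and the other LG calves at most 43.1 CPM. The size of the difference thus depended on these single calves.

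ENSBTAG00000011420 had a lowest, median and highest of 4.13, 7.15 and 12.2 CPM in LG and 2.77, 11.1 and 44.0 CPM in MG. The highest value was again MG 17, and the log2 difference was -0.80 (SE 0.34, adjusted p = 0.985, edgeR) with that library and -0.41 without it. ENSBTAG00000006349 went the other way, with 98.5, 205 and 403 CPM in LG against 48.3, 133 and 213 CPM in MG and a log2 difference of 0.66 (SE 0.31, adjusted p = 0.985, edgeR). Each of these members had overlapping groups.

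At slaughter 98 members were tested and 0 passed the adjusted threshold, as did 0% of 12577 genes. Unadjusted, 5 members passed (3 higher and 2 lower in LG), or 5.1%, where 1.83% of all genes did. DESeq2 gave 8 unadjusted calls (2.01% of all genes) and limma voom 2 (1.56% of all genes), with 0 adjusted calls from either. LG was the lower group for 64 of the 98, and the median log2 difference was -0.09 over members and 0.00 over all genes. That lean turned on single libraries: 78 of 98 were lower in LG without LG 14, and 49 of 98 without MG 31.

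LG 14 was the heifer with the highest level of 25 members, where it was highest for 6.59% of all rows. Its members' share of 0.940% compared with 0.412% to 0.513% in the other LG heifers. With it the LG share was 0.520% ± 0.175 (SD, n = 8), without it 0.460% ± 0.0452 (n = 7), and the MG share was 0.547% ± 0.107 (n = 7).

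ENSBTAG00000012720 had the smallest p at slaughter among members higher in LG. It had a lowest, median and highest of 62.3, 123 and 277 CPM in LG and 51.6, 77.1 and 159 CPM in MG, a log2 difference of 0.77 (SE 0.32, adjusted p = 1.00, edgeR). ENSBTAG00000047420 had the smallest among those lower in LG, with 3.9995, 6.92 and 15.4 CPM in LG and 5.82, 10.2 and 24.0 CPM in MG. Its log2 difference was -0.66 (SE 0.30, adjusted p = 1.00, edgeR). In both members the heifer groups overlapped.

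In the fetus 86 members had enough counts to be tested and 0 passed, as did 0% of 14200 genes. Unadjusted, 4 passed (3 higher and 1 lower in LG), or 4.65%, where 0.718% of all genes did. DESeq2 gave 4 unadjusted calls (1.51% of all genes) and limma voom 2 (0.831% of all genes), again with 0 adjusted. The median log2 difference was -0.07 over the tested members and -0.04 over all genes.

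In the pair with the largest fetal differences, a subset of LG fetuses lay well above the rest. ENSBTAG00000043570 had a lowest, median and highest of 148, 1091 and 3253 CPM in LG and 126, 438 and 830 CPM in MG. LG fetuses 14, 22, 29 and 36 were at 1657 CPM or more, above every MG fetus, and the other 4 were at 525 CPM or less, within the MG range. The log2 difference was 1.58 (SE 0.53, adjusted p = 1.00, edgeR), and 1.24 without LG 29. ENSBTAG00000017681 had 2.31, 3.89 and 15.3 CPM in LG and 1.22, 2.10 and 3.83 CPM in MG, with LG 02, LG 11 and LG 41 at 10.8 CPM or more. The LG median also lay above the highest MG fetus. Its log2 difference was 1.49 (SE 0.46, adjusted p = 1.00, edgeR), and 1.20 without MG 20 and LG 41. A fit without LG 02, LG 11 and LG 41 together was not run.

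ENSBTAG00000043570 also moved the fetal share of the members. With it that share was 0.303% ± 0.117 in the 8 LG fetuses and 0.223% ± 0.0175 in the 8 MG fetuses (SD). Without it the shares were 0.175% ± 0.0172 and 0.181% ± 0.0194, which overlap within their spread.

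**Figure D4:**
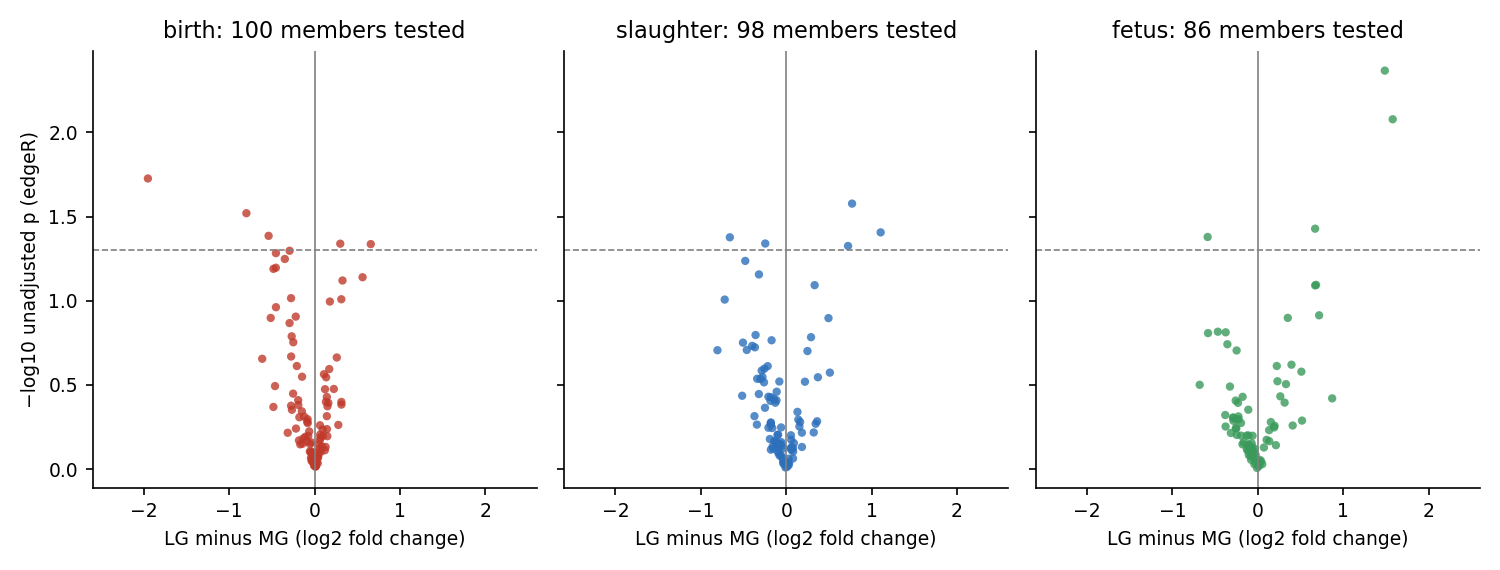
Each point is a member, with its LG minus MG difference (x, log2 fold change) and the negative log10 of its unadjusted p (y) from edgeR at birth (100 members), slaughter (98) and in the fetus (86). The dashed line marks an unadjusted p of 0.05, which 5, 5 and 4 members pass, and 0 members pass after adjustment.

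The absence of calls does not show that the gain groups were alike. The 95% interval from limma voom for the ratio of LG to MG lay within 2-fold for 86 of 100 members at birth (86%, against 90.9% of all genes). It did so for 73 of 98 at slaughter (74.5%, against 89.8%) and 54 of 86 in the fetus (62.8%, against 67.4%).

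Whether the gain effect differed between stages was tested as an interaction over all 47 libraries. Between birth and slaughter 0 of 100 members and 0% of 15264 genes passed by edgeR, with 3 members at an unadjusted p under 0.05, against 3.07% of genes. Between birth and fetus 0 members and 0% of genes passed, with 8 members unadjusted, against 2.94% of genes. Some members entered these fits only through birth, the stage where the rule made them high: 2 did not pass the low-count filter at slaughter and 14 did not in the fetus.

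Among the 98 members that passed at birth and slaughter, 2 had an unadjusted p under 0.05 by edgeR, or 2.04%, against 1.59% of the genes that passed in both. Among the 86 that passed at birth and in the fetus, 7 did, or 8.14%, against 2.12% of genes, and 6 of the 7 had the lower LG minus MG difference at birth. DESeq2 gave 2 and 9 such members (1.62% and 2.58% of genes) and limma voom 1 and 4 (0.567% and 1.70% of genes). Over these genes all 3 tools gave 0 adjusted calls. Over all 15264 genes DESeq2 called 2 in each interaction, with 0 members among them. Both interactions share the birth libraries.

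Slaughter and fetus were compared next. The rule used both means, as ceilings and through the larger of them, but did not fix their order. The counts below are therefore not independent of the choice of members, and nothing particular to them is read from these counts. Of the 84 members that passed the low-count filter in both stages, 73 were higher at slaughter at an adjusted p under 0.05 by edgeR with TMM scaling, 3 were higher in the fetus and 8 were not called. Of the 12067 genes that passed in both, 42.9% were higher at slaughter and 39.5% in the fetus. The median log2 difference, slaughter minus fetus, was 1.64 over these members and 0.11 over these genes.

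The other 16 members passed the filter through a single stage, where they had to be the higher, and support nothing here: 14 through slaughter and 2 through the fetus. With them the counts were 87 and 5 of 100, where 38.4% and 45% of all 14960 genes were called. ENSBTAG00000010954 was such a member. It had a lowest, median and highest of 27.0, 34.4 and 70.5 CPM at slaughter and 0, 0.271 and 4.84 CPM in the fetus, with no overlap, and lay between 311 and 541 CPM at birth.

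The split depended on the scaling. TMM factors averaged 0.790 at slaughter and 1.51 in the fetus. With plain library totals 44 of the 84 members were called higher at slaughter and 14 higher in the fetus, against 21.4% and 60.3% of the 12067 genes. The median log2 difference was then 0.68 over these members and -0.89 over these genes. Over all 100 members plain totals gave 57 and 16, against 20.1% and 63.4% of all genes. ENSBTAG00000018186 shows this dependence. Its mean was 38.1 ± 23.8 CPM at slaughter (SD, n = 15) and 44.2 ± 11.7 CPM in the fetus (n = 16), while the TMM-scaled log2 difference was 0.76 toward slaughter (SE 0.21, adjusted p = 0.00134, edgeR).

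Of the members that passed in both stages, ENSBTAG00000039335 had the largest difference toward slaughter. It had a lowest, median and highest of 33.3, 64.3 and 120 CPM at slaughter and 1.56, 4.03 and 6.53 CPM in the fetus, so the stages did not overlap. The log2 difference was 5.24 (SE 0.21, adjusted p = 2.79e-21, edgeR), and 4.26 with plain totals. At birth it lay between 104 and 550 CPM, and only calf LG 25 lay below the highest slaughter library.

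ENSBTAG00000007415, among the most variable members at birth, came second. It had 30.6, 79.7 and 167 CPM at slaughter and 4.62, 8.30 and 12.2 CPM in the fetus, again with no overlap. The log2 difference was 4.39 (SE 0.22, adjusted p = 2.94e-18, edgeR), and 3.44 with plain totals.

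Among these members the differences toward the fetus were smaller with TMM scaling. ENSBTAG00000021302 had a lowest, median and highest of 0.108, 0.726 and 1.64 CPM at slaughter and 0.828, 2.54 and 7.57 CPM in the fetus, and the stages overlapped. Its log2 difference was -0.90 (SE 0.27, adjusted p = 0.00289, edgeR), which did not pass in MG libraries alone (-0.76). ENSBTAG00000046162 had 0.325, 0.952 and 5.52 CPM at slaughter and 0.738, 4.11 and 7.98 CPM in the fetus. Its log2 difference of -0.67 (SE 0.31, adjusted p = 0.0416, edgeR) did not pass in LG libraries alone (-0.63) or in MG libraries alone (-0.77).

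**Figure D5:**
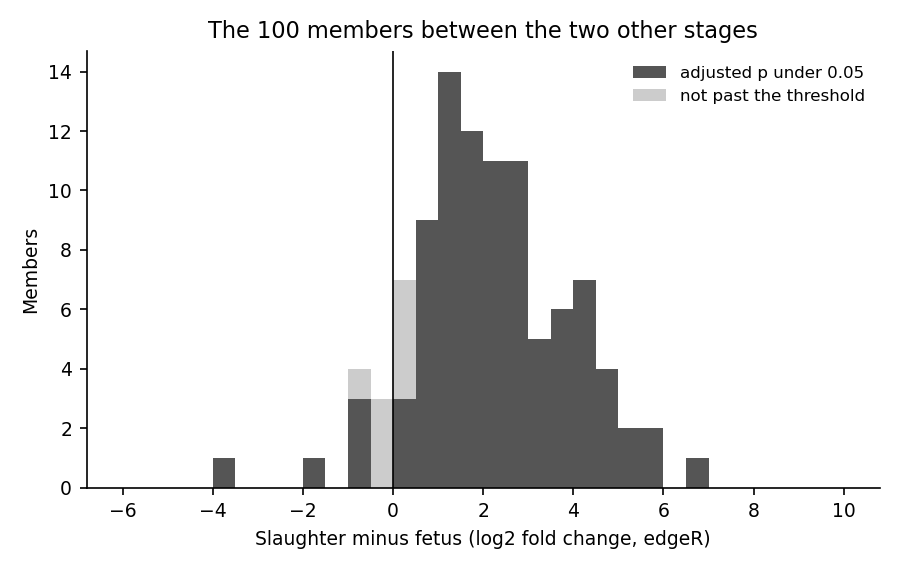
Histogram of the log2 fold change, slaughter minus fetus, of the 100 members from edgeR with TMM scaling, with dark bars for an adjusted p under 0.05 and light bars for the rest. The bulk lies right of 0 (87 called) and the left holds 5 called members, but 16 of the 100 were tested through a single stage, and plain library totals give 57 and 16.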

How the data were processed

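PolyA RNA of 47 muscle libraries was sequenced as 150 bp read pairs from a non-directional kit, per the labels' protocols, so reads of overlapping antisense genes cannot be told apart. STAR 2.7.3a, edgeR 3.24.3, MultiQC 1.9 and FastQC 0.11.8 are listed in the submitters' processing notes. For the genome build, annotation and counter, the entry is: not given in the sources used here. The authors deposited whole-number counts per Ensembl identifier in a table for each stage. The header of the slaughter table lacks a cell for the identifier, so its names were read from the first value column on.

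CPM were computed as count over library total. Tests used edgeR 4.0.16 in R 4.3.3 (filterByExpr, TMM, robust quasi-likelihood) on the counts as deposited. DESeq2 1.42.0 and limma 3.58.1 (voom) were alternatives, with other scalings, filters and left-out libraries. The fit was checked on simulated counts. Members, lists and tests were chosen with earlier results of these data known.

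Identifiers matched to a symbol numbered 0, so gene lists, cell type markers, promoter motifs and sequences were not examined. The rule for named genes (highest rule value, highest birth mean, smallest p in each direction, most and least variable at birth, edge of the selection) was narrowed to at most 2 identifiers per direction, and the slaughter and fetal extremes, the slaughter-against-fetus extremes among members passing the filter in both stages, and ENSBTAG00000010954 were added after the values were seen. At the edge, means are given without identifiers.

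Library numbers are shared by 15 slaughter and fetal, 6 birth and slaughter, and 7 birth and fetal libraries. LG and MG libraries share none, within a stage or between stages, so each number keeps its gain group wherever it occurs. With counting error alone, 3 counts are the limit that a count of 0 allows.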

Additional observations from a re-analysis of the deposited data

Results flagged for a closer look

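A library stood apart in 19 of the 74 groups of values examined. The critical value used is set so that about 1 group in 20 would show this for normally distributed values; CPM can be skewed, and the chance for these groups was not measured. The groups share libraries, and the same libraries recur. Some groups belonged to members named for a high spread at birth or for a small p between gain groups. The count of groups with a library apart is therefore not independent of how members were named. Each value below was separated from the nearest library of its group by a gap that took up most of the group's range.

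Slaughter LG 14 had a members' share of 0.940%, against 0.412% to 0.513% in the other LG heifers. It also had 68.4 CPM of ENSBTAG00000018186 and 3039 CPM of ENSBTAG00000013631, where the other LG heifers reached 40.0 and 1389 CPM. Slaughter MG 32 had 106 CPM of ENSBTAG00000018186, MG 31 had 5.52 CPM of ENSBTAG00000046162, and LG 41 had 8.76 CPM of ENSBTAG00000018223.

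Among calves, LG 05 had 8387 CPM of ENSBTAG00000013631, 127 CPM of ENSBTAG00000023659 and 1538 CPM of ENSBTAG00000007415. MG 17 had 1290 CPM of ENSBTAG00000023659, where the other MG calves reached 84.4 CPM, and 44.0 CPM of ENSBTAG00000011420, where they reached 14.04 CPM. LG 14 had 403 CPM of ENSBTAG00000006349, MG 21 had 157 CPM of ENSBTAG00000007129, and LG 10 had 291 CPM of ENSBTAG00000002083.

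Among fetuses, MG 20 was low for ENSBTAG00000018186 (23.4 CPM) and ENSBTAG00000013631 (201 CPM). LG 29 had 2.43 CPM of ENSBTAG00000008026 and 7.57 CPM of ENSBTAG00000021302, and LG 41 had 0.738 CPM of ENSBTAG00000046162, where the other LG fetuses had at least 3.17 CPM.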

How the results depend on the processing

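With a fold of 2 in place of 2.5, 203 rows met the thresholds, and with a fold of 4, 48 rows did, all of them members. With TMM-scaled CPM 75 of the 100 members were among the first 100 of the rule, and 34 members were among them under each of the 12 other settings. The fold of 4 was 1 of these settings, so at most 48 members could be kept under all of them. Members higher in the fetus than at slaughter numbered 5, 3 in LG libraries alone and 0 in MG libraries alone. Of the members that passed the filter in both stages, a restriction added after seeing the data, 3 were higher in the fetus, and 0 in MG libraries alone. With plain library totals, a setting chosen after seeing the data, 57 members were higher at slaughter and 16 in the fetus, or 44 and 14 of those that passed in both. With the library number as a replicate block, slaughter against fetus gave 87 and 5 members, and 88 and 5 over the same libraries without it. Same-numbered libraries did not deviate together throughout, and the labels do not say whether a number marks an animal. Their deviations had a median r of 0.06 between slaughter and fetus (15 numbers, 6 over 0.1), 0.07 between birth and slaughter (6 numbers, 2 over 0.1) and 0.06 between birth and fetus (7 numbers, 3 over 0.1). The library was closest to its own number in 1 of 15, 2 of 6 and 2 of 7 cases. No value for libraries of unlike number is set beside these, so they do not decide whether a number marks an animal. A random replicate block left the interactions at 0 calls. Counts of members for LG against MG stayed at 0 adjusted calls under every alternative run. Of 140 log2 differences of 15 named members under other settings, 137 kept their direction and side of the threshold. The other 3 kept their direction and no longer passed, ENSBTAG00000021302 in MG libraries alone and ENSBTAG00000046162 in either gain group alone, where fewer libraries entered. These counts do not cover size. No LG against MG difference was near the adjusted threshold, so keeping its side says little. ENSBTAG00000023659 at birth counted as kept, though its log2 difference was -1.95 by edgeR, -0.14 by DESeq2 and -0.17 without MG 17. Leaving out birth LG 05, LG 25, MG 17 or MG 21, slaughter LG 14 or MG 31, and fetal LG 29 or MG 20 with LG 41 was run, not every library. In the fetus 14 members did not pass the low-count filter, so no fetal LG against MG difference could be tested for them.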

Other observations

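Over the 4950 pairs of members, the r of a pair among birth libraries and its r among slaughter libraries had a Pearson correlation of 0.11, against 0.26 over all pairs of the 6445 rows with a birth mean of at least 10 CPM. Between birth and fetus these values were 0.09 and 0.28. Without birth MG 17 and slaughter LG 14 the first pair of values was 0.12 and 0.29, and with the 9 slaughter libraries whose numbers were not seen at birth it was 0.08 and 0.19. Pairs share genes and libraries, each r rests on few libraries and carries sampling error, no p is given, and the difference between members and all rows was not tested.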
